A study of Homo sapiens with 5 samples.

Results

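The small nucleolar RNA (snoRNA) host genes GAS5, ZFAS1, SNHG1, SNHG5, SNHG6, SNHG7, SNHG8, SNHG12, SNHG15 and SNHG16 were followed across SH-SY5Y cells, a human neuroblastoma line used as a model of neuronal differentiation. These 10 genes were chosen by symbol, as noncoding hosts whose spliced RNA is a substrate of nonsense-mediated decay. The choice was made with earlier results of these data known, so host counts set beside shares of all genes are descriptions. Each of the 10 had a value in every library among 26364 gene symbols. There were 5 groups of 1 library each. The siControl cells received a control siRNA, the siSTAU1 cells an siRNA against STAU1 and the siUPF1 cells an siRNA against UPF1, all in medium with 10% serum and 1% antibiotics. The Nondifferentiation and Differentiation cells were grown in the same medium, and the labels list 50 uM retinoic acid for both, so the retinoic acid label does not separate them. The design asks which transcripts are higher both after depletion of STAU1 or UPF1 and in differentiated cells.

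A snoRNA host gene is transcribed and spliced so that its introns release small nucleolar RNAs, which guide chemical modification of ribosomal and other RNAs. In a noncoding host the exons joined by splicing carry only short reading frames. Ribosomes that enter these frames stop early, upstream of exon junctions, and the helicase UPF1 then triggers degradation of the RNA, the process called nonsense-mediated decay. STAU1, a protein that binds double-stranded RNA, recruits UPF1 to other RNAs in Staufen-mediated decay. Many host RNAs start with a C followed by a stretch of pyrimidines, the 5' terminal oligopyrimidine feature of ribosomal protein mRNAs, which ties their translation to growth signals. GAS5, whose name stands for growth arrest-specific, was found as an RNA that accumulates in arrested cells.

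The annotated starts of the hosts are shown first because this start feature is the best known sequence they share. RefSeq promoters of build GRCh38.p14 were matched by symbol for 8 of the 10 hosts, the others being SNHG6 and SNHG15. The authors' processing notes name hg19, and their files carry no positions. Each window runs 5' to 3' on the gene's strand and holds 15 bases before the annotated start and 25 from it on. Capitals mark the start base and any unbroken run of C or T that begins with it. The first 4 start with C and at least 4 pyrimidines in a row, and the last 2 windows, of GAS5 and SNHG16, do not. GAS5 has 29 transcripts in GENCODE 29, and starts other than the 1 used per host were not examined.
ZFAS1, chr20:49278627-49278666, plus strand: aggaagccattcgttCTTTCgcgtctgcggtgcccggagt
SNHG5, chr6:85678709-85678748, minus strand: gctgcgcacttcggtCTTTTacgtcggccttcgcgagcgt
SNHG7, chr9:136728160-136728199, minus strand: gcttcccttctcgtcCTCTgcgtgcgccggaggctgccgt
SNHG12, chr1:28581849-28581888, minus strand: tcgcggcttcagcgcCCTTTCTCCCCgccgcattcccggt
GAS5, chr1:173869021-173869060, minus strand: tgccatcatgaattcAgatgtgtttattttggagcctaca
SNHG16, chr17:76557749-76557788, plus strand: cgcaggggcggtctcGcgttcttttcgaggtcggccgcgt

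The annotated start base was C in 6 of the 8 matched hosts, against 14.7% of 35116 promoters in the table. A run of at least 4 pyrimidines that begins with that C was present in 4 of the 8, against 5.45% of all promoters. The same feature was present in 11 of the 15 matched ribosomal protein genes of the list of coding hosts used further on. SNHG1 starts with C and has a run of 3, and SNHG8 starts with C and has a run of 1. The E-box CACGTG, which reads the same on both strands, occurred in the 300-base promoter of SNHG7 alone among the 8, against 7.26% of all promoters. These are matches of letters at annotated starts, and the starts used in SH-SY5Y cells were not measured.

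Estimated depth lay between about 16600000 reads in siControl and 27100000 in Differentiation. UPF1 was lower in the library labelled for its siRNA, at 9.20 against 10.74 in siControl, and STAU1 was lower in its own, at 11.34 against 12.87. Both stayed level in the differentiation pair, with UPF1 at 10.69 and 10.62 and STAU1 at 12.86 in each. All 8 markers of noradrenergic neuroblasts were above 0 in every library, with medians from 10.71 in Differentiation to 12.19 in siSTAU1. The 6 epithelial markers had medians of 2.49, 6.34, 4.49, 0.13 and 3.47 in the order siControl, siSTAU1, siUPF1, Nondifferentiation, Differentiation. Their summed linear value was 64.4, 594, 151, 56.4 and 131 in that order. On the log2 scale the highest single epithelial marker was at 5.57, 7.56, 6.27, 5.67 and 6.29 in that order. The lowest single host value on that scale was 6.79, SNHG15 in Differentiation. Of the 6 epithelial markers, 2 were at 0 in siControl, 1 in siUPF1 and 3 in Nondifferentiation. The 4 hepatocyte markers summed to 82.2, 132, 522, 63.0 and 5.20 in that order, nearly all of it ALB, with at least 2 of the 4 at 0 in every library. All 5 mesenchymal markers were above 0 throughout. Their sum was 50963 in Nondifferentiation and 103979 in Differentiation, most of it FN1, at 15.45 and 16.63 on the log2 scale. Their median went the other way, with 8.13 in Nondifferentiation and 6.47 in Differentiation. COL1A1 was higher in Differentiation as FN1 was, while VIM, TAGLN and COL1A2 were lower. Of 3 glial and 3 blood markers at least 1 each was at 0 in every library. The blood marker HBB stood at 5.92, 7.76, 6.31, 6.75 and 7.82 in the library order given above. PTPRC was at 0 throughout, and CD3E was above 0 in siControl alone, at 0.26. The part of these markers' cells in the host gene differences was not tested.

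The hosts spanned a wide range of levels that was nearly the same in every library. The kit reads the 3' end of each polyadenylated RNA, so a value does not grow with the length of the RNA, and levels here are deposited log2 values. SNHG16 was the highest host in 4 libraries, with 12.78 in siControl, 12.72 in Nondifferentiation, 12.92 in siSTAU1 and 12.64 in siUPF1. In Differentiation it stood at 11.72, behind ZFAS1 at 11.84. SNHG15 and SNHG12 were the lowest hosts in every library. Of 45 pairs of neighbours in these orders, 6 differed by no more than their counting error. They were ZFAS1 and SNHG1 in siControl, SNHG16 and ZFAS1 in siUPF1, SNHG6 with SNHG8, SNHG7 with SNHG5 and SNHG15 with SNHG12 in Nondifferentiation, and SNHG1 and GAS5 in Differentiation. The spread between cultures is unknown, so other neighbours need not differ either.

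**Figure D1:**
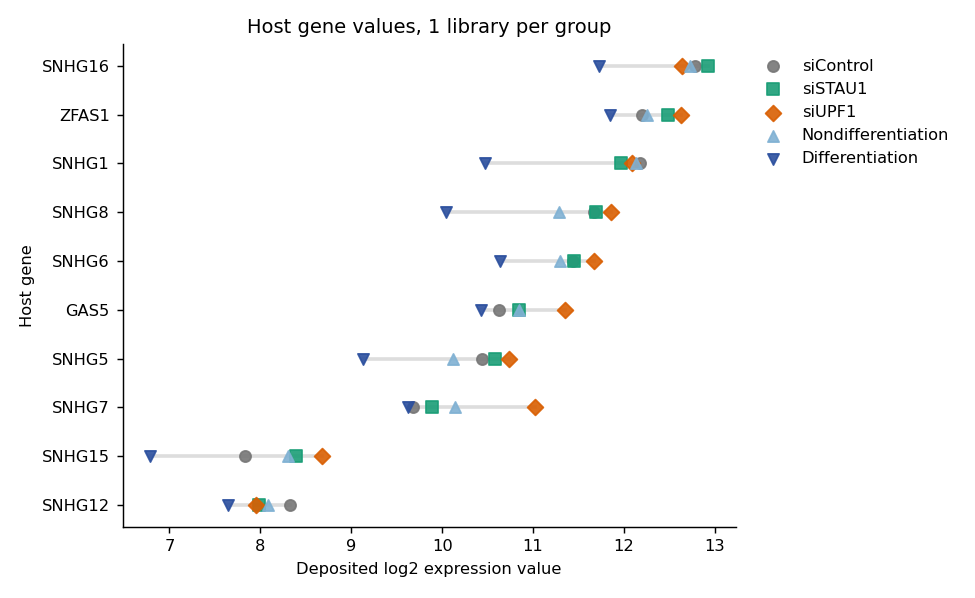
Deposited log2 value (x axis) of each host gene (y axis, ordered by its median) in the 5 libraries, 1 point per library, with a grey line from the lowest to the highest. Differentiation is the lowest point of each of the 10 genes, and siUPF1 is the highest of 7.

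Each of the 10 hosts had its lowest value in Differentiation, as did 40.3% of 9217 genes measured in at least 1 library. Of the 10, 7 had their highest value in siUPF1, against 12.3% of those genes. The exceptions were SNHG1 and SNHG12, highest in siControl, and SNHG16, highest in siSTAU1. The range over the 5 libraries went from 0.68 for SNHG12 to 1.88 for SNHG15 on the log2 scale.

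With 1 library per group no difference could be tested, so each is given as a log2 fold, the difference of the deposited log2 values of 2 libraries. The interval beside it covers 95% of counting error at the estimated depth and nothing else. A host was counted as higher above a log2 fold of 0.32 and as lower below -0.32, and the share of all measured genes past the same threshold is given beside each count. Measured genes are those whose larger value reached the median nonzero value of both libraries, which lay between 7.76 and 7.84. All 10 hosts were measured in every comparison.

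In siUPF1 the hosts divided. SNHG7, SNHG15, GAS5 and ZFAS1 were higher than in siControl, SNHG12 was lower, and the remaining 5 lay between these thresholds. Thus 4 of the 10 were counted as higher, where 11.5% of 8475 measured genes were, and 1 of the 10 as lower, where 10.6% were. The median of the 10 was 0.27, beside -0.01 for all measured genes. Of the 10, 7 were above 0, where 47.8% of measured genes were.

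SNHG7, the host of a pair of box H/ACA snoRNAs that guide pseudouridylation, stood at 11.02 in siUPF1, against 9.67 in siControl and 9.89 in siSTAU1. It stood at 10.14 in Nondifferentiation and 9.62 in Differentiation. The siUPF1 value lies above all the others, which are closer together. Its log2 fold in siUPF1 was 1.35 (1.22 to 1.47), a 2.55-fold difference and the 12th highest among the measured genes. It was the only host past 2-fold in siUPF1, a size reached upward by 0.401% of measured genes.

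SNHG15, the host of SNORA9, stood at 8.67 in siUPF1, against 7.84 in siControl and 8.39 in siSTAU1. It stood at 8.31 in Nondifferentiation and 6.79 in Differentiation. The siControl value was lower than those of siSTAU1 and Nondifferentiation as well as of siUPF1. The log2 fold in siUPF1 was 0.84 (0.59 to 1.09), the 75th highest of the measured genes, with a wider interval because the siControl value rests on about 194 reads.

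GAS5, which carries box C/D snoRNAs for ribose methylation in its introns, stood at 11.35 in siUPF1, 10.63 in siControl and 10.84 in siSTAU1. The differentiation pair gave 10.85 in Nondifferentiation and 10.43 in Differentiation. As with SNHG7, siUPF1 was the highest library, here with siControl and Differentiation at the low end. The log2 fold in siUPF1 was 0.72 (0.63 to 0.82), a 1.65-fold difference.

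ZFAS1, the host of the SNORD12 family that starts opposite the gene ZNFX1, stood at 12.63 in siUPF1, 12.20 in siControl and 12.48 in siSTAU1, with 12.25 in Nondifferentiation and 11.84 in Differentiation. Both knockdown libraries lay above the siControl library. Its log2 fold in siUPF1 was 0.43 (0.37 to 0.49).

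SNHG5, the host of the SNORD50 pair, had a log2 fold of 0.30 (0.19 to 0.41) in siUPF1, just inside the threshold. SNHG6, the host of SNORD87, had 0.23 and SNHG8, the host of SNORA24, had 0.18. SNHG1, which carries a run of box C/D snoRNAs, had -0.09 (-0.16 to -0.03). SNHG16, the host of the SNORD1 family, had -0.14 (-0.19 to -0.09). These 2 abundant hosts were thus close to siControl, in the same library in which SNHG7 was 2.55-fold higher.

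SNHG12, which carries 3 box H/ACA snoRNAs and SNORD99, was the only host counted as lower. It stood at 7.95 in siUPF1, 8.33 in siControl and 7.99 in siSTAU1, with 8.09 in Nondifferentiation and 7.64 in Differentiation. The siControl value was the highest of these. The log2 fold in siUPF1 was -0.37 (-0.62 to -0.12).

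**Figure D2:**
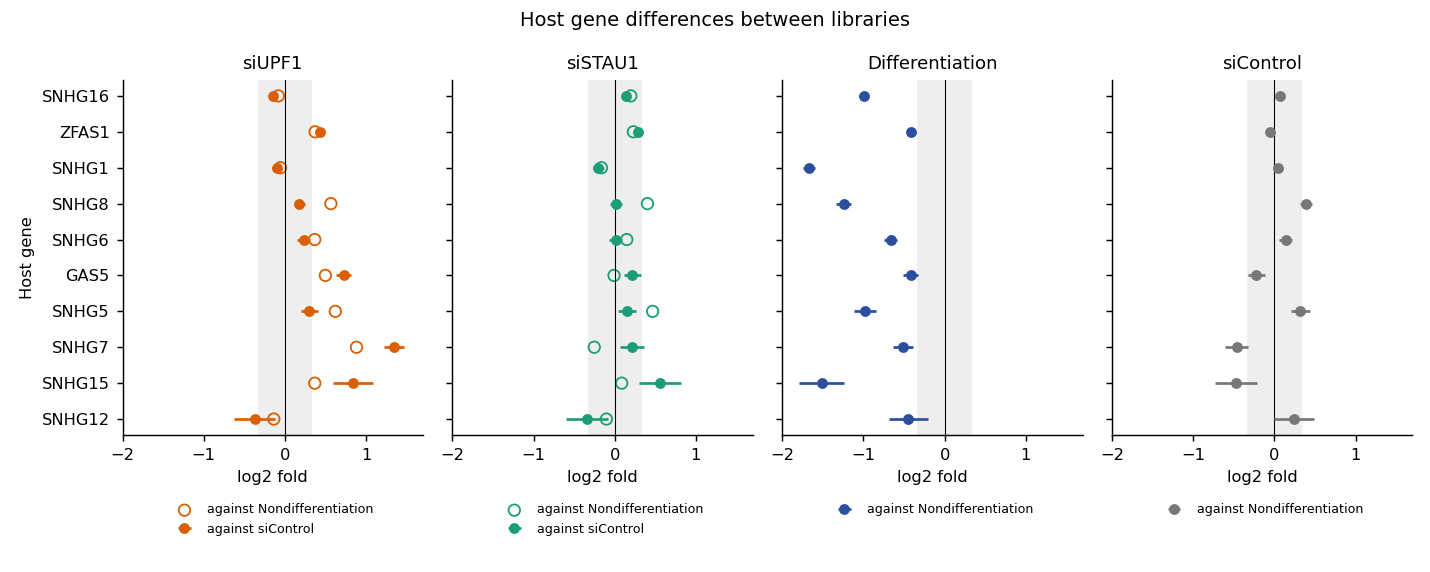
Log2 fold (x axis) of each host gene (y axis) in siUPF1, siSTAU1, Differentiation and siControl, filled points with 95% counting intervals, against the reference library named under each panel. Open points give the knockdown libraries against Nondifferentiation, and the grey band holds folds between -0.32 and 0.32. In siUPF1 SNHG7 stands at 1.35 filled and 0.88 open, and in Differentiation all 10 points lie left of the band.

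The choice of reference library moved single hosts more than counting error did. Between the reference libraries themselves, siControl against Nondifferentiation, 1 host was counted as higher, SNHG8 at 0.39, where 12.1% of 8547 measured genes were, and 2 as lower, SNHG15 at -0.47 and SNHG7 at -0.47, where 11.6% were. These last 2 are the hosts with the highest folds in siUPF1 against siControl. With Nondifferentiation in place of siControl, 7 of the 10 hosts were counted as higher in siUPF1, where 12.4% of 8563 measured genes were, and 0 as lower, where 11.4% were. SNHG7 then had 0.88, SNHG5 0.62, SNHG8 0.57, GAS5 0.50, ZFAS1 0.37, SNHG6 0.37 and SNHG15 0.37. All 4 hosts counted as higher against siControl were counted so with this reference too, although both counts rest on the same siUPF1 library. SNHG1 at -0.05, SNHG16 at -0.08 and SNHG12 at -0.14 stayed within the threshold, so SNHG12 lost its count as lower.

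**Figure D3:**
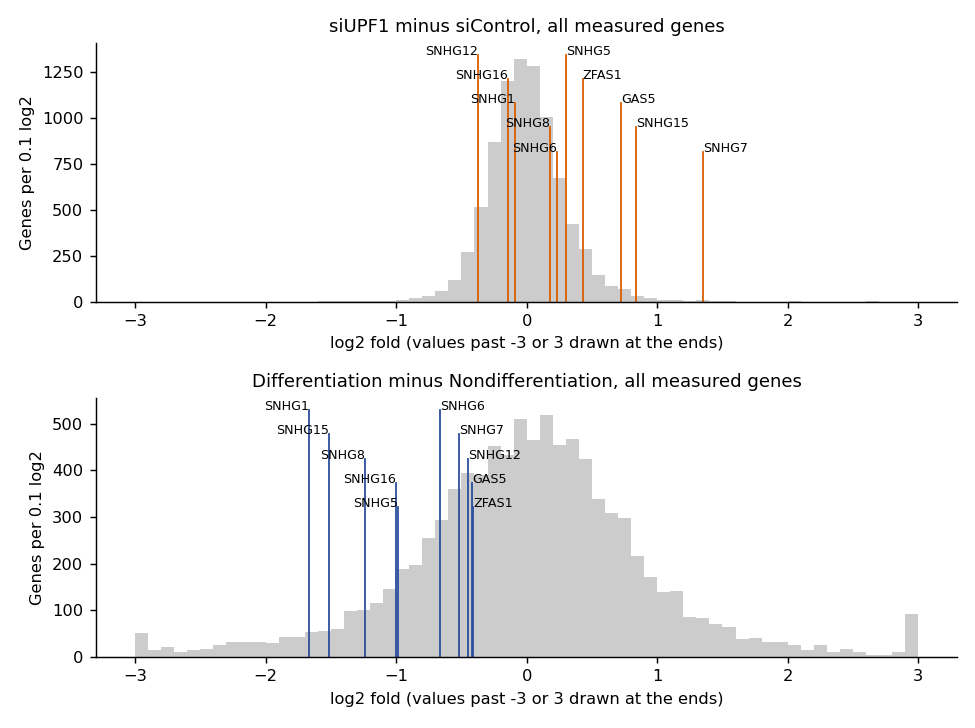
Number of measured genes (y axis) by log2 fold (x axis, bins of 0.1) in siUPF1 minus siControl, above, and Differentiation minus Nondifferentiation, below, with a coloured line for each host gene. In the upper panel SNHG7, SNHG15 and GAS5 lie in the right tail, and in the lower panel all 10 hosts lie left of 0.

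Differences in siSTAU1 were smaller. SNHG15 was counted as higher at 0.56 (0.29 to 0.82), which makes 1 of the 10 where 7.03% of 8454 measured genes were. SNHG12 was counted as lower at -0.34 (-0.60 to -0.08), again 1 of the 10, where 8.36% were. The median of the 10 was 0.14, beside 0.01 for all measured genes. ZFAS1 had 0.29, GAS5 0.21 and SNHG7 0.21, while SNHG1 had -0.20, and the other 4 hosts lay between 0.01 and 0.15. SNHG6 at 0.01 and SNHG8 at 0.02 were within counting error of siControl. Because siSTAU1 and siUPF1 were set against the same siControl library, a host that is low or high there moves both folds the same way. SNHG15 was lower in siControl than in Nondifferentiation, and SNHG12 had its highest value in siControl. With Nondifferentiation as reference neither SNHG15 nor SNHG12 passed the threshold, at 0.09 and -0.10. SNHG5 at 0.47 and SNHG8 at 0.40 were then the 2 hosts counted as higher, where 9.91% of 8555 measured genes were, and 0 were lower, where 10.4% were.

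In Differentiation every host was lower than in Nondifferentiation. In bulk RNA of this kind, fewer cells of a type and less RNA per cell cannot be told apart. All 10 were counted as lower, where 33.0% of 9064 measured genes were, and 0 as higher, where 33.8% were. The median was -0.82, beside 0.02 for all measured genes, and 49.1% of measured genes were below 0. Past 2-fold there were 3 hosts, where 10.9% of measured genes were lower by that much.

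SNHG1 had the largest difference of the 10, with 10.47 in Differentiation and 12.14 in Nondifferentiation, while its 3 siRNA libraries lay between 11.97 and 12.18. The log2 fold of -1.67 (-1.75 to -1.59) is 3.18-fold lower. SNHG15, at 6.79 against 8.31, had a log2 fold of -1.51 (-1.79 to -1.24). SNHG8 stood at 10.04 in Differentiation and 11.29 in Nondifferentiation, beside 11.67, 11.69 and 11.85 in siControl, siSTAU1 and siUPF1, a log2 fold of -1.24 (-1.33 to -1.15). For these 3 hosts the Differentiation value lay below all the others by at least the distance that separates those. The same held for SNHG16, SNHG5 and SNHG6.

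SNHG16 at -0.999 and SNHG5 at -0.98 followed just inside 2-fold. SNHG5 stood at 9.13 in Differentiation and 10.12 in Nondifferentiation, beside 10.44, 10.58 and 10.74 in siControl, siSTAU1 and siUPF1. SNHG6, at 10.63 and 11.30 beside 11.43, 11.45 and 11.67, had a log2 fold of -0.67. The smallest differences were those of SNHG7 at -0.52, SNHG12 at -0.45, GAS5 at -0.42 and ZFAS1 at -0.41. Of the 4 hosts counted as higher in siUPF1 against siControl, where 11.5% of measured genes were, 3 are thus among the 4 least lowered in Differentiation. The other, SNHG15, is among the most lowered. This overlap depends on the reference. With Nondifferentiation as reference, 7 hosts were counted as higher in siUPF1, where 12.4% of measured genes were. SNHG5, SNHG6 and SNHG8 were then among them, with -0.98, -0.67 and -1.24 in Differentiation. A link between the 2 comparisons was not tested.

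Larger thresholds gave fewer hosts. Past 1.5-fold, siUPF1 had 3 hosts higher, where 3% of measured genes were, and 0 lower, where 1.56% were. Differentiation had 6 hosts lower past 1.5-fold, where 21.7% were. In siSTAU1 against siControl there were 0 hosts past 1.5-fold, where 1.02% of measured genes were higher and 1.29% lower. Between siControl and Nondifferentiation there were also 0, where 2.26% were higher and 3.21% lower. Past 2-fold no host was lower in siUPF1, where 0.142% were. The shares past 2-fold in the comparisons without such hosts were 0.0946% higher and 0.106% lower in siSTAU1, and 0.222% and 0.573% in siControl against Nondifferentiation. SNHG7, SNHG15 and GAS5 are the 3 hosts past 1.5-fold in siUPF1.

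The folds of Differentiation against Nondifferentiation were also taken after a trend on GC content and RNA length was removed. With the trend fitted over all measured genes, the median of the hosts was -0.69 and 7 of the 10 were counted as lower, where 32.3% of measured genes with both properties were. GAS5 then had -0.06, SNHG6 -0.10 and ZFAS1 -0.21, so these 3 lost their count. SNHG1 had -1.46, SNHG15 -1.46, SNHG16 -0.91 and SNHG8 -0.81. In siControl against Nondifferentiation the same step left 1 host, SNHG15, counted as lower, where 11% of measured genes were. The longest annotated RNA of the 10 hosts was between 648 and 3607 bases long, where the median of measured genes was 3824.

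Several hosts lie across from another gene on the opposite strand in GENCODE 29, and the sources used here do not say whether counting used strand. GAS5-AS1, annotated within GAS5 on the other strand, stood at 11.02 in siUPF1, 10.23 in siControl and 10.41 in siSTAU1, with 10.46 in Nondifferentiation and 10.00 in Differentiation. The gap from GAS5 down to it stayed between 0.33 and 0.44 in all 5 libraries. MCMDC2, a gene of the MCM helicase family that overlaps SNHG6, kept a gap of 0.83 to 0.93 below SNHG6. FAM69B, which overlaps SNHG7, stood at 9.90 in siUPF1 and 8.99 in siControl, a log2 fold of 0.91, with a gap to SNHG7 of 1.13 and 0.69. Without strand, reads of each host and its partner cannot be told apart, so the values of these hosts are uncertain to that extent.

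Other overlapping genes differed more from their hosts. ZNFX1, a helicase-like protein that starts opposite ZFAS1, had a log2 fold of -0.20 in siUPF1 and 0.79 in Differentiation, where ZFAS1 had 0.43 and -0.41. TRNAU1AP, a selenocysteine tRNA-associated protein that overlaps SNHG12, had 0.17 in siUPF1, where SNHG12 had -0.37. In siSTAU1 and Differentiation the 2 genes were close, with -0.28 and -0.42 for TRNAU1AP and -0.34 and -0.45 for SNHG12. ZBTB37, which overlaps GAS5, stood far below it, between 5.23 and 6.05, and had -0.81 in siUPF1, -0.72 in siSTAU1 and -0.61 in Differentiation, where GAS5 had 0.72, 0.21 and -0.42.

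**Figure D4:**
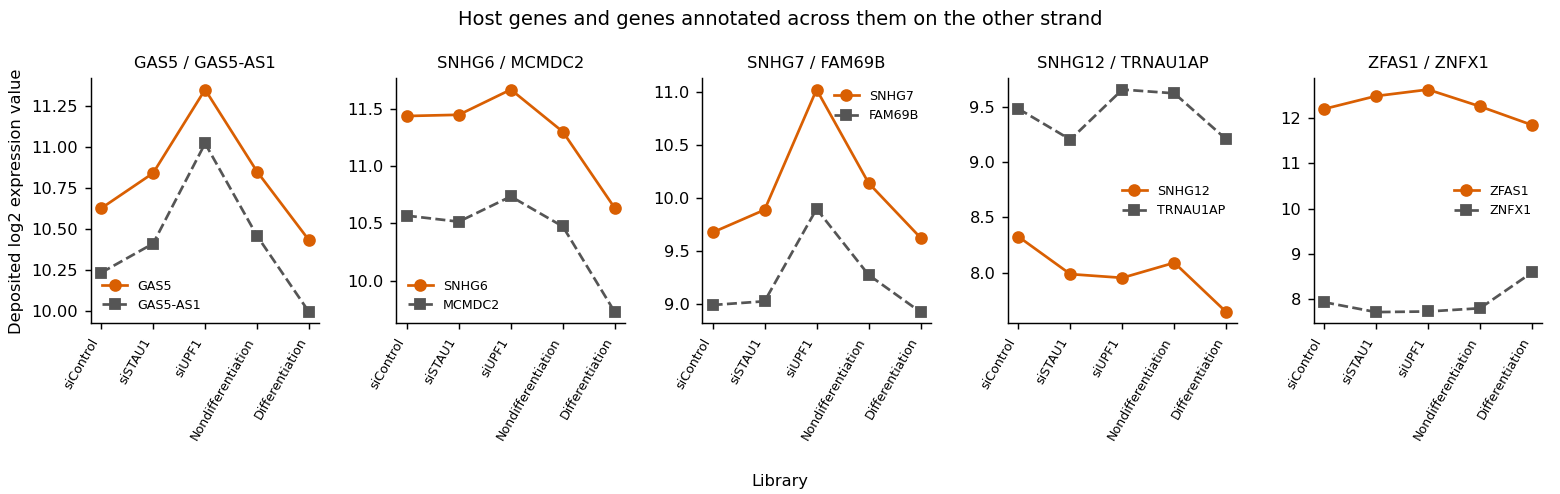
Deposited log2 value (y axis, scaled separately in each panel) of 5 host genes, circles, and of a gene annotated on the opposite strand, squares, in the 5 libraries (x axis, which has no order: lines only join the points of a gene). GAS5 with GAS5-AS1 and SNHG6 with MCMDC2 run in parallel, with gaps that vary by 0.11 each, while ZNFX1 is highest in Differentiation, where ZFAS1 is lowest.

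The snoRNAs carried by the 10 hosts mostly had low values in these libraries. Of 37 listed guest symbols 35 had a value, 31 were above 0 in some library and 5 reached a log2 value of 5 in some library. The other 26 of the 31 stayed below 5 in every library and are not described singly. Whether reads counted under a guest symbol came from the small RNA, from an unspliced host or from elsewhere was not examined.

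In the order siControl, siSTAU1, siUPF1, Nondifferentiation, Differentiation, SNORD26, in an intron of SNHG1, stood at 9.70, 9.39, 9.16, 10.00 and 10.70. It was higher in Differentiation, with a log2 fold of 0.71 where its host SNHG1 had -1.67. SNORD50A, a guest of SNHG5, stood at 9.61, 9.26, 9.23, 9.66 and 10.06 in that order. It too was higher in Differentiation, at 0.41, where SNHG5 had -0.98, and lower in siUPF1, at -0.38, where SNHG5 had 0.30. SNORA61, a guest of SNHG12, stood at 5.92, 5.81, 4.95, 6.09 and 6.83, lowest in siUPF1 and highest in Differentiation.

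SNORD79 and SNORD81, guests of GAS5, differed from these in Differentiation. In the same order SNORD79 stood at 7.42, 7.15, 6.94, 7.64 and 6.86, and SNORD81 at 6.35, 5.95, 6.61, 6.27 and 5.06. Both were lowest in Differentiation, with -0.78 and -1.21, as GAS5 was with -0.42. In siUPF1 SNORD79 had -0.48 and SNORD81 0.26, where GAS5 had 0.72. The standard errors from counting alone were 0.18 for SNORD79 and 0.23 for SNORD81, so SNORD81 was within counting error of siControl. SNORD79, SNORD81 and SNORA61 did not count as measured genes in any comparison, so their folds are less certain than those of the hosts.

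Other noncoding snoRNA hosts divided in siUPF1 as well. Of 14 with a value, 7 were measured, 3 were higher past the threshold of 0.32 and 3 lower, with a median of 0.16. Among all measured genes 11.5% were higher and 10.6% lower. SNHG17 had 1.00 and C6orf48, a host of box C/D snoRNAs, had 0.82, while SNHG19 had -0.75 and SNHG25 -0.57. With Nondifferentiation as reference, 3 of 8 measured were higher in siUPF1 and 4 lower, beside 12.4% and 11.4% of all measured genes. The median was then -0.28, so its sign depended on the reference. In Differentiation 5 of 8 measured were lower and 1 was higher, with a median of -0.47, beside 33.0% lower and 33.8% higher among all measured genes. SNHG3 had -1.22 and SNHG25 -1.18, and C6orf48 had 0.63 and EPB41L4A-AS1 0.14. Among the measured genes of the list, C6orf48, at 14.30 in Differentiation, passed the threshold upward both in siUPF1 and in Differentiation. EPB41L4A-AS1 had 0.37 in siUPF1 against siControl.

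Coding hosts, which make protein from their exons and carry snoRNAs in their introns, lay mostly below 0 in siUPF1 against siControl. Of 45 measured, 1 was higher and 8 were lower in siUPF1, with a median of -0.12, beside 11.5% higher and 10.6% lower among all measured genes. TNPO2, an import receptor, had 0.41 and the translation factor EIF4G2 0.31. WDR43, a factor of small ribosomal subunit assembly, had -0.62 and the ribosomal protein gene RPS12 -0.48. With Nondifferentiation as reference, 21 of 46 lay above 0 and 23 below it, with 3 higher and 2 lower past the threshold. In Differentiation 33 of 46 were lower and 3 higher, with a median of -0.56, beside 33.0% lower and 33.8% higher among all measured genes. The elongation factor EEF1B2 had -1.54 and the chaperonin subunit TCP1 -1.37, against 0.51 for EIF4G2 and 0.46 for EIF4A2.

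The proteins that assemble with snoRNAs were lower in Differentiation too. Of 15 measured, 13 were lower, 10 of them past 2-fold, and 0 were higher, with a median of -1.18. Among all measured genes 33.0% were lower, 10.9% were lower past 2-fold and 33.8% were higher. The assembly helicase RUVBL2 had -1.63 and FBL, the methyltransferase of box C/D particles, had -1.50, against 0.03 for ZNHIT6 and -0.25 for PIH1D1. In siUPF1 the median was -0.13, with 0 higher and 3 lower, beside 11.5% higher and 10.6% lower among all measured genes. NOP58 had -0.42 and NOP56 -0.37 there, and PIH1D1 had 0.10 and ZNHIT3 0.05. With Nondifferentiation as reference, 0 of 15 measured were higher in siUPF1 and 0 lower, beside 12.4% and 11.4% of all measured genes. The median was then -0.09, with 3 above 0 and 12 below it, and NOP58 had -0.19 and NOP56 -0.07.

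**Figure D5:**
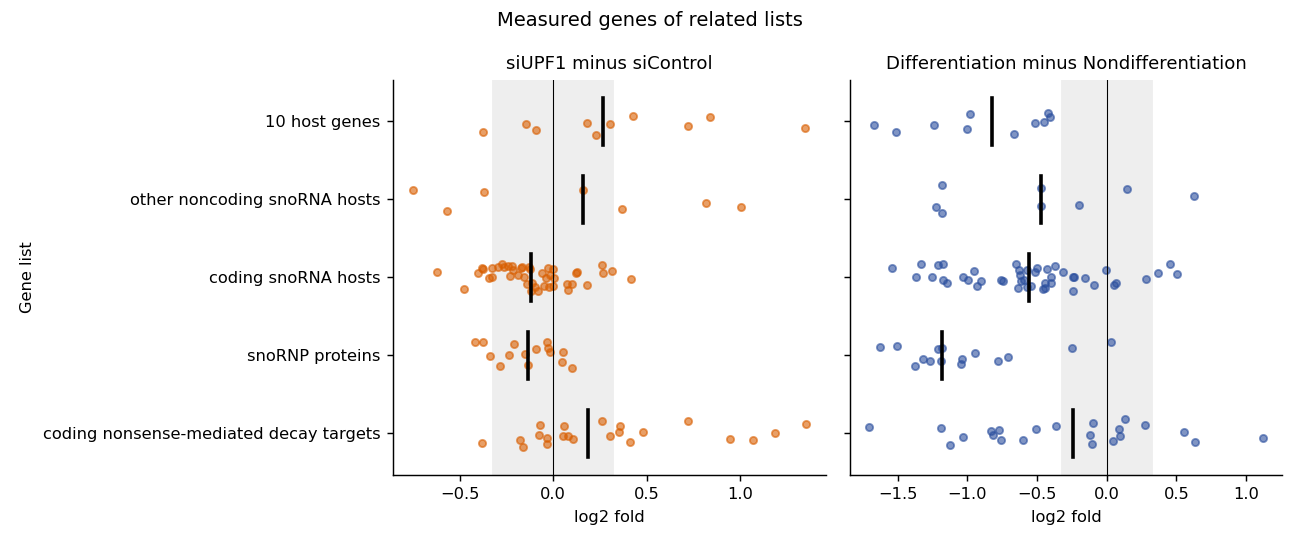
Log2 fold (x axis) of each measured gene in 5 gene lists (y axis) for siUPF1 minus siControl, left, and Differentiation minus Nondifferentiation, right, with a black bar at the list median and a grey band between -0.32 and 0.32. In siUPF1 the medians are 0.27 for the 10 hosts and -0.12 for coding hosts, and in Differentiation all 5 medians are below 0. Points are spread vertically only to keep them apart.

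Protein-coding targets of nonsense-mediated decay were on the same side as the hosts in siUPF1. Of 22 measured, 9 were higher and 1 was lower, with a median of 0.19, beside 11.5% higher and 10.6% lower among all measured genes. GABARAPL1, an autophagy protein, had 1.35 and the stress-induced transcription factor ATF3 1.19, while asparagine synthetase ASNS had -0.38 and UPF2 -0.18. With Nondifferentiation as reference, 8 of 23 measured were higher in siUPF1 and 3 lower, with a median of 0.12. CDKN1A and UPP1, at 0.94 and 1.07 against siControl, then had -0.88 and -0.35. In Differentiation 11 of 22 were lower and 3 higher, beside 33.0% lower and 33.8% higher among all measured genes. The median of these targets was -0.24, with folds from ATF3 at -1.70 and SRSF7 at -1.19 to NAT9 at 0.63 and GABARAPL1 at 1.12. Of 24 measured decay factors, 6 were higher and 1, UPF1 itself, was lower in siUPF1, beside the same 11.5% and 10.6%. SMG9, a regulator of the kinase that acts on UPF1, had 0.52, while GSPT1, a release factor, had -0.25. In Differentiation 8 of 23 were lower and 3 higher, a share near the 33.0% of all measured genes for the lower ones. The exon junction proteins MAGOHB and MAGOH had -1.64 and -1.20, and SMG6, the endonuclease of the pathway, and the exonuclease XRN1 had 0.93 and 0.71.

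In siSTAU1 against siControl the medians of the related lists were all within 0.1 of 0, but decay genes past the threshold were mostly lower. Of 24 decay factors 6, STAU1 included, were lower and 0 higher, and of 22 coding decay targets 6 were lower and 2 higher, beside 8.36% lower and 7.03% higher among all measured genes. UPF2, UPF3B, SMG1 and SMG5 stand in both lists, and all of these but SMG1 were counted as lower in both. Of 45 coding hosts 3 were lower and 0 higher, of 7 other noncoding hosts 0 and 1, and of 15 snoRNP proteins 1 and 1. The medians were -0.03 for other noncoding hosts, -0.06 for coding hosts, 0.06 for snoRNP proteins, -0.02 for coding decay targets and -0.09 for decay factors. DANCR at 0.43 and C6orf48 at 0.29 were the highest other noncoding hosts, and SNHG19 at -0.27 and EPB41L4A-AS1 at -0.17 the lowest. EIF4G2 at 0.31 and RPL30 at 0.28, and RPL17 at -0.45 and TAF1D at -0.41, were the extremes of the coding hosts. SHQ1 at 0.39 and GAR1 at 0.28, and NOP56 at -0.36 and PIH1D1 at -0.22, were those of the snoRNP proteins. CDKN1A at 0.47 and ATF3 at 0.35, and UPF2 at -0.66 and UPF3B at -0.60, were those of the coding targets. Of the decay factors, STAU2 and NBAS, at 0.31 each, were highest, and STAU1 at -1.52 and UPF2 were lowest. With Nondifferentiation as reference, 1 of 23 measured decay factors was lower, STAU1, and 3 were higher. Of 23 measured coding decay targets 4 were then lower and 0 higher, beside 10.4% lower and 9.91% higher among all measured genes. UPF2 at -0.10 and UPF3B at -0.01 lay within the threshold with this reference.

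Between the reference libraries, siControl against Nondifferentiation, the list medians were -0.21, 0.12, 0.08, -0.07 and 0.03 in the same order. Of the other noncoding hosts, EPB41L4A-AS1 at 0.56 and SNHG19 at 0.31 were highest and SNHG3 at -0.43 and SNHG9 at -0.30 lowest. Of the coding hosts, RPL4 had 0.54, RPS12 0.46, HSPA8 -0.39 and EIF4A2 -0.37. Of the snoRNP proteins, NOP56, which is also a coding host, had 0.30, NHP2 0.25, NOP10 -0.31 and NHP2L1 -0.17. Of the coding decay targets, the cell cycle inhibitor CDKN1A had -1.83 and UPP1 -1.42. UPF3B at 0.59 and UPF2 at 0.56 were highest there, and both also stand among the decay factors, with PNRC2 at 0.60, SMG8 at -0.30 and EIF4A3 at -0.41. The gap between the references was thus larger for CDKN1A and UPP1 than for any of the 10 hosts, which lay between -0.47 and 0.39.

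The profile of the 10 hosts over the libraries, taken as the median of their values after each was centred on its own mean, was 0.42 in siUPF1, 0.16 in siControl, 0.18 in siSTAU1, 0.02 in Nondifferentiation and -0.78 in Differentiation. SNHG6 lay nearest to it, with a root mean square difference of 0.06, and SNHG7 farthest, with 0.41. Among the 9217 genes measured in at least 1 library, those nearest to the profile outside the 10 were BORA, an activator of the mitotic kinase Aurora A, at 0.04, and KLHL25 and the mitochondrial ribosomal protein gene MRPL48, at 0.05 each. This likeness rests on 5 libraries and is a description.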

How the data were processed

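Libraries were made from 500 ng of RNA with a Lexogen QuantSeq kit, per the labels' protocols. The authors deposited log2 expression values, 1 per symbol and library; per the submitters' processing notes, Bowtie2, edgeR and hg19 were used, with no role or version given. How reads were counted, and whether by strand, is not stated in them. The highest value was 18.01 in every library and upper quartiles lay between 8.63 and 8.64, a pattern of quantile normalization that is inferred from the values and removes differences in overall RNA output. Units per read, the slope of the 20th to 150th distinct linear values, were 1.18, 1.14, 1.04, 1.04 and 0.72 in siControl, siSTAU1, siUPF1, Nondifferentiation and Differentiation, for about 16600000, 17100000, 18800000, 18700000 and 27100000 reads, and gave the counting errors. Counting SEs of the hosts' log2 folds were 0.03 to 0.14. Groups came from the titles. No test was run with 1 library per group. GC content and length came from the longest GENCODE 29 transcript per symbol, matched for 95.9% of measured genes. The trend was a quadratic fit on GC content and log length. The members and lists were chosen with earlier results of these data known. Named genes are the 10 hosts, the 2 highest and 2 lowest measured genes of each related list and comparison, STAU1 and UPF1, the 3 nearest profiles and the detected guests. The opposite-strand genes were added from the annotation, outside that rule. Some genes that these choices include are not reported here. Alternatives were other filters, a pseudocount of 16, centring, the trend, the other reference and other thresholds. Software was numpy 2.4.6, pandas 2.3.3 and matplotlib 3.10.9 under Python 3.11.15, and the depth and fold steps were tested on simulated data.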

Additional observations from a re-analysis of the deposited data

How the results depend on the processing

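Under no filter, a pseudocount of 16 and centring on the median of measured genes, the medians and counts of the 10 hosts moved by less than counting error or 1.5 times, and so they did when both values had to reach the floor. No host past the 0.32 threshold changed sign under any alternative. With Nondifferentiation as reference, the siUPF1 median was 0.37 with 7 higher and 0 lower, and siSTAU1 had 2 higher and 0 lower. With the GC content and length trend removed, the Differentiation median was -0.69, and siControl against Nondifferentiation had 1 lower. At 1.5-fold, siUPF1 had 3 higher and 0 lower and Differentiation 6 lower; at 2-fold, siUPF1 had 1 higher and 0 lower and Differentiation 3 lower. At either threshold siSTAU1 and siControl against Nondifferentiation had 0 higher and 0 lower. The cause of these shifts was not tested. No paired analysis was possible because each group had 1 library. Depth limits SNHG15 and SNHG12 most, at about 154 and 223 reads in their lowest libraries.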
